A study of Sus scrofa with 6 samples.

Results

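Mitochondrial ribosomal protein genes and the TIMM and TOMM genes of mitochondrial protein import were compared between back muscle of Northeastern Indigenous and Large White boars. The group holds every gene whose single symbol in the platform annotation starts with MRPL, MRPS, TIMM or TOMM, which gave 76 of the 6765 genes with such a symbol. Of these, 36 belong to the large ribosomal subunit, 22 to the small subunit and 18 to protein import. The 76 genes had 99 probe sets, and each gene was represented by the probe set with the highest mean log2 intensity over the 6 arrays. A further 6 probe sets carried such a symbol beside another entry and were left out. All 76 genes passed the filter on dim probe sets, which kept 5438 of the 6765 genes.

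The samples were longissimus dorsi, a long back muscle, of 3 boars of the Large White breed, which served as control, and 3 of the Northeastern Indigenous breed. All 6 were aged 150 days and were fed and housed alike, per the labels, which name no treatment of the animals. Whole pieces of muscle were frozen, and RNA of each boar was read on its own Affymetrix Porcine Genome Array. The values are therefore those of all cell types in the piece, and fewer cells of a type cannot be told apart from less RNA per cell.

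Mitochondria keep a small genome whose messages encode core proteins of the respiratory chain, and a ribosome of their own translates them in the matrix. Its RNAs come from mitochondrial DNA, whereas all its proteins are encoded in the nucleus, made in the cytosol and imported, like nearly all other mitochondrial proteins. Precursors cross the outer membrane through the TOM complex. Small TIM chaperones then carry hydrophobic precursors through the intermembrane space, the TIM22 complex inserts carrier proteins into the inner membrane, and the TIM23 complex passes proteins with a presequence into the matrix. Skeletal muscle, and oxidative fibres above all, is rich in mitochondria.

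Large White replicates 1 and 3 stood apart from the other 4 arrays. The labelled tissue was checked against 15 measured sarcomere markers, which were all above the filter on dim probe sets. Their summed intensity was 45273 on Large White replicate 1 against 294648 to 401823 on the other 5 arrays. ADIPOQ, which encodes adiponectin of fat cells, read on the log2 scale 13.64, 7.22 and 12.50 on Large White replicates 1, 2 and 3, and 7.11, 8.29 and 6.73 on Northeastern Indigenous replicates 1, 2 and 3. The 8 measured adipocyte markers summed to 57489, 5607 and 36728 in Large White boars and to 5907 to 8502 in Northeastern Indigenous boars. The 12 measured leukocyte markers summed to 25431, 7252 and 22405, against 1849 to 4153, and the 8 fibroblast and matrix markers to 121006, 40970 and 100703, against 25447 to 36329. The sums of the 7 measured endothelial markers overlapped between the breeds, at 2606 to 2854 and 2338 to 3178. PECAM1, the brightest of them on every array, read 10.74, 10.06 and 10.29 on the log2 scale in Large White boars, against 10.03, 10.08 and 9.61. The other 5 of the 6 endothelial markers above the filter had a higher mean in Northeastern Indigenous boars. The median difference of the 6, Northeastern Indigenous minus Large White, was 0.33 on the log2 scale. Such sums follow the brightest probe sets most. Of the adipocyte and the fibroblast and matrix markers above the filter, 2 went against their lists. AGPAT2 of the adipocyte list read 6.30, 8.26 and 7.39 on the log2 scale in Large White boars, against 8.36, 8.38 and 8.09. COL3A1 of the fibroblast and matrix list read 8.55, 10.35 and 9.78, against 9.91, 9.97 and 11.36. Both were dimmest on Large White replicate 1. No marker was listed at 0, and CEBPA, CD79B and KDR were below the filter. The part of these cell types in the differences that follow was not tested.

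The mitoribosome and import genes were brighter in Northeastern Indigenous boars as a group, but no single gene passed the test. The difference, Northeastern Indigenous minus Large White, was above 0 in 73 of 76 genes, with a median of 0.67 on the log2 scale and a range of -0.43 to 1.20. Over all 5438 genes tested the difference was above 0 in 54.7%, with a median of 0.09. Limma called 0 of the 76 at a Benjamini-Hochberg adjusted p under 0.05, and the background was 0% of all genes. Adjusted p ran from 0.224 to 0.976 in limma. At an unadjusted p under 0.05 there were 23 genes higher in Northeastern Indigenous boars, or 30.3% against 9.42% of all genes, and 0 lower against 11.4%. The 3 Northeastern Indigenous arrays were all above the 3 Large White arrays in 39 genes, or 51.3% against 15.9% of all genes. The opposite was found in 0 genes, against 12.3%. Genes on an array share that array's RNA, so these counts are not counts of independent events.

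The spread lay mostly among the Large White boars. The median SD per gene was 0.44 among Large White boars, against 0.13 among Northeastern Indigenous boars (n = 3 each), and the Large White SD was the larger in 66 of 76 genes, or 86.8% against 74% of all genes. Set against the Northeastern Indigenous mean of each gene, Large White replicate 1 had a median of -1.09, replicate 3 one of -0.78 and replicate 2 one of -0.19. The Northeastern Indigenous arrays themselves lay between -0.01 and 0.02. Large White replicate 1 was the dimmest of the 6 arrays in 54 of 76 genes, or 71.1% against 31.8% of all genes.

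**Figure D1:**
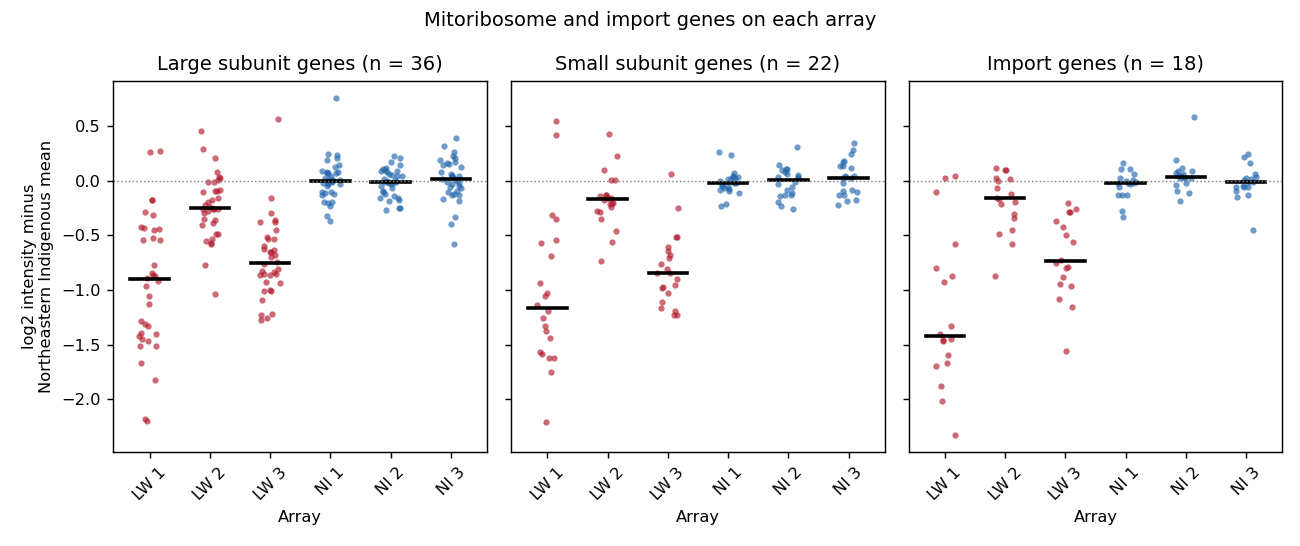
Log2 intensity of each gene minus its mean over the 3 Northeastern Indigenous arrays (vertical axis) on each of the 6 arrays (horizontal axis; LW, Large White; NI, Northeastern Indigenous), with 1 point per gene and a black bar at the median. The bars of Large White replicates 1 and 3 lie well below 0 in all 3 panels, at -0.91 and -0.75 for the large subunit, and those of Large White replicate 2 between -0.24 and -0.16.

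The 3 parts of the group had similar medians. The median difference was 0.66 for the large subunit (quartiles 0.48 and 0.85), 0.69 for the small subunit (0.49 and 0.95) and 0.74 for import (0.46 and 0.96). At an unadjusted p under 0.05 there were 11 of 36, 8 of 22 and 4 of 18 genes, all higher in Northeastern Indigenous boars. These were 30.6%, 36.4% and 22.2%, against 9.42% of all genes higher and 11.4% lower. On Large White replicate 1 the medians against the Northeastern Indigenous mean were -0.91, -1.17 and -1.43, and on Large White replicate 3 they were -0.75, -0.84 and -0.74. The order of the 3 parts on replicate 1 was therefore not that on replicate 3.

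Among large subunit genes, 35 of 36 had a positive difference, against 54.7% of all genes, and all Northeastern Indigenous arrays were the higher in 20, or 55.6% against 15.9%. The 4 with the smallest unadjusted p were MRPL35, MRPL46, MRPL38 and MRPL19. MRPL35, counterpart of a bacterial large subunit protein, read 10.60, 10.69 and 10.60 on Large White replicates 1, 2 and 3 and 11.49, 11.44 and 11.45 on Northeastern Indigenous replicates 1, 2 and 3 on the log2 scale. The breeds did not overlap, and Large White replicates 1 and 3, which stood apart in so many genes, were level with replicate 2 here. The difference was 0.83 ± 0.21 (SE, n = 3 per breed), or 1.78-fold, with an unadjusted p of 0.00532 and an adjusted p of 0.224 in limma. Its other probe sets differed by 0.45 ± 0.25 and 0.48 ± 0.35 (SE).

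MRPL46, a protein that the bacterial ribosome lacks, read 9.62, 10.45 and 9.93 in Large White boars and 11.01, 10.89 and 11.18 in Northeastern Indigenous boars. Another probe set of it gave the same difference, 1.02 ± 0.34 against 1.02 ± 0.29 (SE; limma adjusted p = 0.232 and 0.224). MRPL38, likewise without a bacterial counterpart, read 8.79, 9.64 and 8.99 against 10.10, 10.42 and 10.12, a difference of 1.08 ± 0.31 (SE). A second MRPL38 probe set overlapped, at 0.54 ± 0.45, and the mean of both gave 0.81. The breeds were apart on the representative probe sets of both genes, with Large White replicate 2 nearest to the Northeastern Indigenous arrays. MRPL19, which has a bacterial counterpart, read 9.92, 10.72 and 10.28 against 11.21, 11.02 and 11.38, with no overlap and a difference of 0.90 ± 0.29 (SE; limma adjusted p = 0.227).

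MRPL24 was the single large subunit gene with a negative difference. It read 7.52, 7.72 and 7.83 in Large White boars and 8.02, 7.08 and 6.68 in Northeastern Indigenous boars. Its arrays overlapped, Northeastern Indigenous replicate 1 being the highest of the 6, and the difference was -0.43 ± 0.38 (SE; limma adjusted p = 0.505). MRPL24 also had the lowest mean intensity of the large subunit genes, and MRPL53 the highest. MRPL53 read 12.48, 13.03 and 12.63 against 12.97, 12.99 and 13.05, so that Large White replicate 2 lay within the range of the other breed. The intensities of different probe sets are not amounts that can be set against each other.

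**Figure D2:**
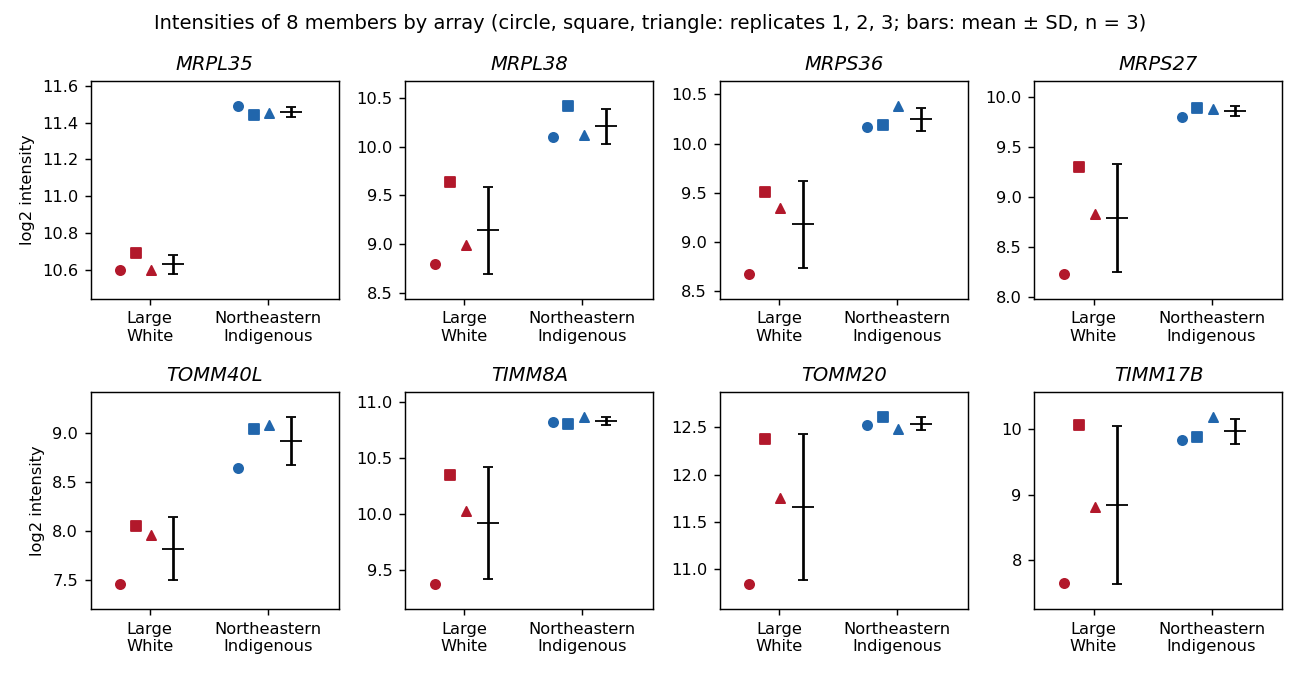
Log2 intensity (vertical axes, not starting at 0) of 8 genes in Large White (red) and Northeastern Indigenous (blue) boars, with circles, squares and triangles for replicates 1, 2 and 3 and bars for mean ± SD (n = 3). MRPL35 shows little spread in either breed, whereas TIMM17B on Large White replicate 2 (10.07) lies inside the Northeastern Indigenous range and on replicate 1 (7.64) far below it.

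Small subunit genes had a positive difference in 20 of 22, against 54.7% of all genes, and no overlap in 12, or 54.5% against 15.9%. MRPS36, MRPS27, MRPS12 and MRPS5 had the smallest unadjusted p. MRPS36 read 8.68, 9.51 and 9.35 in Large White boars and 10.17, 10.19 and 10.38 in Northeastern Indigenous boars. The breeds were clearly separate, and the difference was 1.07 ± 0.30 (SE; 2.1-fold; limma adjusted p = 0.224). Despite its symbol, the MRPS36 protein is known as a part of the 2-oxoglutarate dehydrogenase complex of the tricarboxylic acid cycle, and the MRPS30 protein sits in the large subunit. Without these 2 genes the small subunit median was still 0.69, with 18 of 20 differences above 0.

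MRPS27, a pentatricopeptide repeat protein of the small subunit, read 8.23, 9.30 and 8.83 against 9.80, 9.89 and 9.88, a difference of 1.07 ± 0.32 (SE; limma adjusted p = 0.224). MRPS12, a protein of the decoding centre, read 8.03, 9.15 and 8.64 against 9.53, 9.92 and 9.39. MRPS5 read 7.59, 8.74 and 7.80 against 8.99, 8.90 and 9.20. Large White replicate 1 was lowest in all 3 genes and the breeds did not overlap in any. The differences of MRPS12 and MRPS5 were 1.01 ± 0.35 and 0.98 ± 0.35 (SE; limma adjusted p = 0.234 and 0.236), and 2 other MRPS12 probe sets differed by 0.83 ± 0.26 and 1.50 ± 0.53.

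MRPS9 and MRPS10 were the exceptions of the small subunit. MRPS9, a counterpart of a bacterial protein, read 10.30, 9.76 and 9.82 in Large White boars and 9.64, 9.52 and 10.10 in Northeastern Indigenous boars, a difference of -0.21 ± 0.29 (SE), with -0.33 ± 0.28 on a second probe set. MRPS10 read 11.61, 11.05 and 10.94 against 11.12, 11.22 and 11.22, a difference of -0.01 ± 0.26 (SE; 0.01 without quantile normalization and 0.15 with arrays centred on their medians). In both, Large White replicate 1 was the brightest array and the breeds overlapped. MRPS21, the small subunit gene of highest mean intensity, read 10.72, 12.31 and 11.49 against 12.49, 12.53 and 12.39. MRPS23, that of lowest mean intensity, read 7.45, 8.59 and 7.78 against 8.63, 8.64 and 8.49. Large White replicate 2 was near or within the Northeastern Indigenous range in both.

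The MRPL and MRPS genes were also divided by whether the protein has a bacterial counterpart. The 34 with one had a median difference of 0.73 and the 24 without one a median of 0.63, or 0.62 over 23 without MRPS36. The Northeastern Indigenous arrays were all the higher in 20 of 34 and 12 of 24, against 15.9% of all genes. All 3 of these genes with a negative difference have a bacterial counterpart.

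The TOMM genes, which encode outer membrane proteins except for the cytosolic TOMM34, had a positive difference in 7 of 7, and the breeds did not overlap in 4, against 15.9% of all genes in this direction. TOMM40L, a paralog of the channel protein of the TOM complex, read 7.46, 8.05 and 7.96 in Large White boars and 8.64, 9.04 and 9.08 in Northeastern Indigenous boars. The breeds did not overlap, and Large White replicates 2 and 3 lay close together. Its difference of 1.10 ± 0.28 (SE; 2.15-fold) had an unadjusted p of 0.00548 and an adjusted p of 0.224 in limma.

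The receptors TOMM20, TOMM22 and TOMM70 recognise precursors at the mitochondrial surface. TOMM20 read 10.84, 12.38 and 11.75 against 12.52, 12.61 and 12.48, a difference of 0.88 ± 0.38 (SE). TOMM70, which takes up carrier precursors from cytosolic chaperones, read 7.80, 9.35 and 8.52 against 9.45, 9.50 and 9.46, a difference of 0.92 ± 0.40 (SE). In both the breeds did not overlap, though Large White replicate 2 was 0.16 and 0.12 below the Northeastern Indigenous mean. TOMM22 read 11.94, 12.64 and 12.24 against 12.52, 12.57 and 12.48, and here Large White replicate 2 was the brightest array.

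TOMM5 and TOMM7, small proteins that assemble and stabilise the channel, differed by 0.54 ± 0.28 and 0.67 ± 0.32 (SE). TOMM5 read 11.67, 12.62 and 11.87 against 12.57, 12.63 and 12.58. TOMM7 read 11.95, 13.16 and 12.93 against 13.46, 13.39 and 13.20. Large White replicate 2 was level with the Northeastern Indigenous arrays in TOMM5 and just below them in TOMM7. TOMM34, a cytosolic co-chaperone of precursors, read 7.92, 7.42 and 7.67 against 7.74, 8.46 and 7.42. It was among the members with more spread in Northeastern Indigenous boars (SD 0.54 against 0.25, n = 3 each), and its difference was 0.20 ± 0.34 (SE).

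Genes of the small TIM chaperones had positive differences in 6 of 6, with a median of 0.86 and no overlap in 3, against 15.9% of all genes in this direction. TIMM8A, which pairs with TIMM13 in a ring-shaped complex, read 9.37, 10.35 and 10.03 against 10.82, 10.81 and 10.87, a difference of 0.91 ± 0.31 (SE; limma adjusted p = 0.232). TIMM13 read 11.30, 11.83 and 11.61 against 12.18, 12.13 and 12.20, a difference of 0.59 ± 0.22 (SE; limma adjusted p = 0.244). Both partners were below the Northeastern Indigenous range on all 3 Large White arrays. TIMM9 and TIMM10 form a second such ring. TIMM9 read 9.71, 10.95 and 10.41 against 11.19, 11.19 and 11.10, and TIMM10 read 9.99, 11.71 and 10.99 against 12.04, 11.69 and 11.89. TIMM9 did not overlap, whereas Large White replicate 2 lay within the range of the other breed for TIMM10. TIMM10B, which docks the chaperones on the carrier translocase, read 8.82, 10.93 and 9.75 against 10.94, 10.72 and 10.84. TIMM8B read 12.34, 13.96 and 13.57 against 14.00, 13.97 and 13.85. Both overlapped through Large White replicate 2, and TIMM10B had the wider difference, 1.00 ± 0.51 against 0.65 ± 0.39 (SE).

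Inner membrane translocase genes had positive differences in 5 of 5, with a median of 0.44, and the breeds overlapped in all 5. TIMM44, which tethers the import motor to the channel, read 7.32, 8.35 and 7.09 in Large White boars and 8.32, 8.74 and 8.90 in Northeastern Indigenous boars. The overlap came from Large White replicate 2 alone, and the difference was 1.06 ± 0.39 (SE; limma adjusted p = 0.24), with 1.36 ± 0.43 and 0.82 ± 0.56 on its other 2 probe sets. TIMM17B, part of the presequence channel, read 7.64, 10.07 and 8.81 against 9.84, 9.88 and 10.19. It had the widest difference of the import genes, 1.13 ± 0.58 (SE), and also the largest Large White SD, 1.22 (n = 3).

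The other 3 differed less. TIMM22, the carrier channel, read 8.71, 9.51 and 9.01 against 9.48, 9.60 and 9.45. TIMM21, which also takes part in respiratory chain assembly, read 10.34, 9.86 and 10.15 against 10.38, 10.63 and 10.31. TIMM50, the presequence receptor of the inner membrane, read 10.01, 9.92 and 9.73 against 9.86, 10.05 and 10.05. In TIMM21 the array nearest to the Northeastern Indigenous mean was Large White replicate 1, not replicate 2. TIMM50 had the smallest difference of the import genes, 0.10 ± 0.24 (SE), with 0.18 ± 0.29 on a second probe set and -0.02 without quantile normalization.

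**Figure D3:**
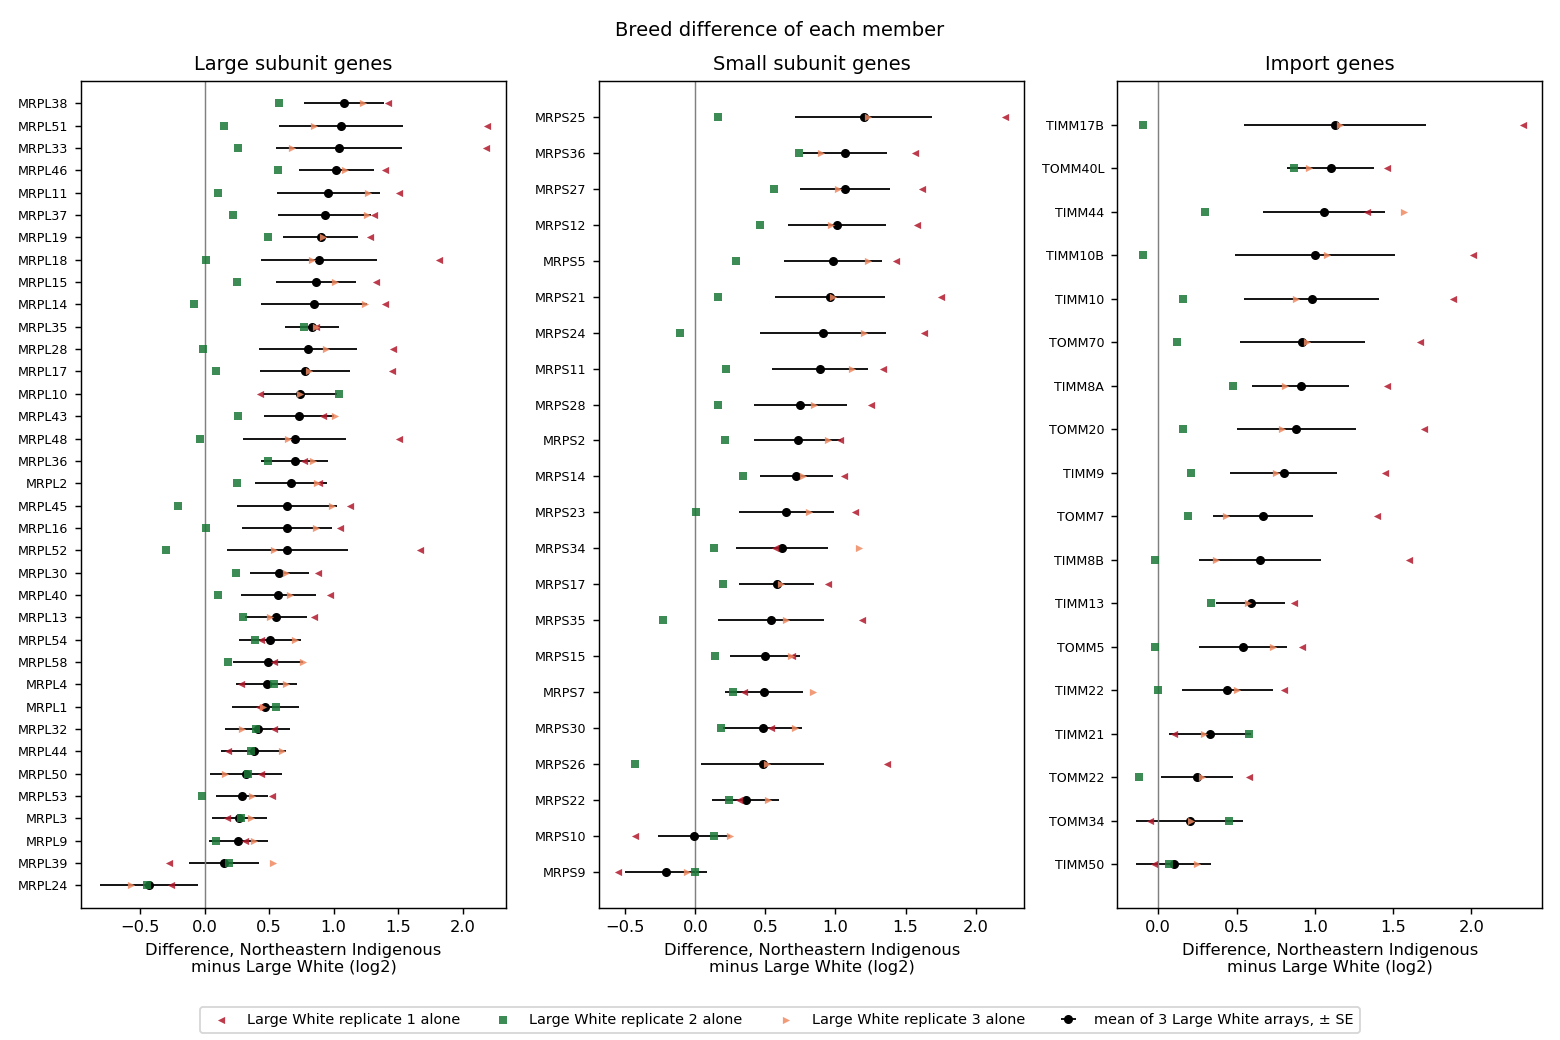
Difference in log2 intensity, Northeastern Indigenous minus Large White (horizontal axes), of each of the 76 genes (vertical axes, in order of the difference). Black points show the fit on 3 arrays per breed with its SE, and coloured marks show the Northeastern Indigenous mean minus each Large White array. The marks for Large White replicate 2 lie between -0.45 and 1.04, mostly left of those for replicates 1 and 3.

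Large White replicate 2, whose sarcomere and adipocyte markers were level with the other breed and whose leukocyte and matrix markers lay at medians of 0.92 and 0.48 above it, carried a smaller difference. Against that array by itself the medians were 0.24, 0.17 and 0.16 for large subunit, small subunit and import genes, and 59 of 76 differences were above 0. All 3 Northeastern Indigenous arrays were above it in 43 of 76 genes, or 56.6%, where the background was 30.9% of all genes. For Large White replicates 1 and 3 these shares were 90.8% and 94.7% of the 76 genes, where the backgrounds were 43.1% and 43.8%. The Northeastern Indigenous mean exceeded Large White replicate 2 by over 0.5 in 10 genes, or 13.2%, which is near the background of 14.4%. Those 10, singled out after their values were seen, were MRPL10 (1.04), TOMM40L (0.87), MRPL35 (0.77), MRPS36 (0.74), TIMM21 (0.58), MRPL38 (0.58), MRPL46 (0.57), MRPS27 (0.56), MRPL1 (0.55) and MRPL4 (0.54). This comparison rests on 1 Large White animal.

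Leaving Large White replicate 2 out instead, limma called 47 of the 76 genes at an adjusted p under 0.05, or 61.8%, all higher in Northeastern Indigenous boars, where the background was 34% of all genes called in either direction and 16.9% called higher. They were 21 large subunit, 15 small subunit and 11 import genes, and the medians were 0.87, 0.96 and 1.04. This sets the 2 arrays with bright adipocyte, leukocyte and matrix markers against Northeastern Indigenous boars. Leaving out any other single array gave 0 calls. Array weights, whose estimation stopped before it converged and put nearly all weight on Large White replicate 3, gave 68 calls, or 89.5%, all higher, against 60.5% of all genes in either direction and 34.8% higher.

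Probe sets other than the representative one mostly had the same sign. There were 23 of them for 17 genes, of which 20 passed the filter, and 19 of these had the sign of the representative. MRPL15 was the exception, at -0.06 ± 0.64 against 0.86 ± 0.31 (SE). A second MRPL33 probe set differed by 1.43 ± 0.32 (SE; limma adjusted p = 0.224), with no overlap between the breeds, where its representative overlapped at 1.04 ± 0.49.

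Genes that work with the mitoribosome were counted from fixed lists. None of their members passed the adjusted threshold in limma, against the background of 0% given above. The unadjusted counts that follow stand against 9.42% of all genes higher in Northeastern Indigenous boars and 11.4% lower. Of 10 genes listed for mitochondrial translation factors and related proteins, PTCD3 and SLIRP among them, 9 had a positive difference (median 0.81). An unadjusted p under 0.05 was found in 4, all higher in Northeastern Indigenous boars. TSFM, the exchange factor that recharges the elongation factor TUFM, read 10.38, 10.24 and 10.08 in Large White boars and 11.06, 11.04 and 11.09 in Northeastern Indigenous boars. TUFM itself read 10.06, 10.42 and 9.57 against 10.91, 11.00 and 11.31. Both were apart on all arrays, with differences of 0.83 ± 0.23 and 1.06 ± 0.30 (SE; limma adjusted p = 0.224 for both). Of 14 tested genes for ribosome assembly and ribosomal proteins with other names, 14 had a positive difference (median 0.54) and 3 an unadjusted p under 0.05. FASTKD2, needed for the large subunit RNA, read 9.05, 8.97 and 8.94 against 9.67, 9.59 and 9.76. MTG1, an assembly GTPase, read 8.25, 10.27 and 8.87 against 10.34, 10.42 and 10.51. FASTKD2 was level on the 3 Large White arrays and MTG1 was not.

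Charging of mitochondrial transfer RNAs was covered by 9 tested genes, with 8 positive differences (median 0.46). The breeds did not overlap in 2 higher genes, GATB and GARS, and 1 lower gene, WARS2. Over all genes these shares were 15.9% and 12.3%. GARS, whose difference was only 0.08 ± 0.21 (SE), and WARS2 were named after their values were seen. A single gene was at an unadjusted p under 0.05, which is near the background of 9.42%. That was GATB, a subunit of the amidotransferase that makes glutaminyl transfer RNA, at 5.37, 6.45 and 6.37 against 7.48, 7.68 and 7.40. The reading of 5.37 on Large White replicate 1 was below 5.85, the level of the filter on mean intensity. QRSL1, the partner of GATB, read 9.25, 11.28 and 10.24 against 11.35, 11.17 and 11.42. GATB did not overlap, and QRSL1 did through Large White replicate 2. Of 7 tested genes for expression of mitochondrial DNA, 5 had a positive difference (median 0.35) and 2 an unadjusted p under 0.05. TEFM, the elongation factor of mitochondrial transcription, read 8.80, 9.43 and 9.31 against 10.60, 10.17 and 10.50, a difference of 1.25 ± 0.29 (SE; limma adjusted p = 0.224). TFAM, which packages and transcribes mitochondrial DNA, read 10.50, 10.73 and 10.40 against 11.05, 11.21 and 11.46. All 3 Large White arrays were below the other breed in both genes.

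Of 17 import partners with other names, 14 had a positive difference (median 0.37), and 4 had an unadjusted p under 0.05, all higher in Northeastern Indigenous boars. VDAC2, an outer membrane channel, read 12.29, 12.93 and 12.33 in Large White boars and 13.36, 13.45 and 13.48 in Northeastern Indigenous boars. MIPEP, a peptidase that trims imported presequences, read 7.57, 7.44 and 7.43 against 8.45, 8.56 and 8.27. The breeds did not overlap in either, and the differences were 0.91 ± 0.22 and 0.95 ± 0.23 (SE; limma adjusted p = 0.224 for both). HSPD1, the matrix chaperonin, chosen here after its values were seen because it was the most negative, read 13.56, 12.49 and 13.07 against 12.54, 12.64 and 12.41, with overlap.

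Regulators of mitochondrial biogenesis were split, with 3 of 6 differences above 0, a median of 0.06 and 1 gene, PPARGC1A, at an unadjusted p under 0.05. PPARGC1A, the coactivator that drives mitochondrial gene programmes in muscle, read 4.03, 8.80 and 7.09 in Large White boars and 9.28, 8.94 and 9.84 in Northeastern Indigenous boars. PRKAA2, the muscle catalytic subunit of the AMP-activated kinase, read 7.84, 12.63 and 11.73 against 12.62, 12.81 and 13.14. Large White replicate 1 was far below all other arrays in both, and the differences were 2.71 ± 1.09 and 2.12 ± 1.12 (SE; limma adjusted p = 0.255 and 0.32). Its PPARGC1A reading of 4.03 was below 5.85, the level of the filter on mean intensity. Against Large White replicate 2 by itself the differences of PPARGC1A and PRKAA2 were 0.55 and 0.23.

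Other gene groups on the same arrays gave a frame for these values. The 59 nuclear subunits of the respiratory chain and ATP synthase, whose core partners the mitoribosome makes, had a median difference of 0.73, with 58 above 0. On Large White replicates 1, 2 and 3 they lay at -1.03, -0.31 and -0.70 from the Northeastern Indigenous mean, and at -1.44, -0.25 and -1.02 on the deposited scale. The 59 tested cytosolic ribosomal protein genes had a median difference of -0.10 and lay at 0.16, 0.07 and 0.11 on these arrays, but at -0.54, 0.31 and -0.42 on the deposited scale, so their sign depended on scaling. The mitoribosome and import genes kept theirs, at medians of -1.02, -0.20 and -0.73 on the deposited scale. Sarcomere genes lay at -3.58, -0.04 and -0.36 after normalization and at -3.85, 0.17 and -0.83 on the deposited scale. On Large White replicate 1 they stood lower than the mitoribosome and import genes on both scales, and on replicate 3 the order depended on scaling. No test of these groups against each other was made.

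**Figure D4:**
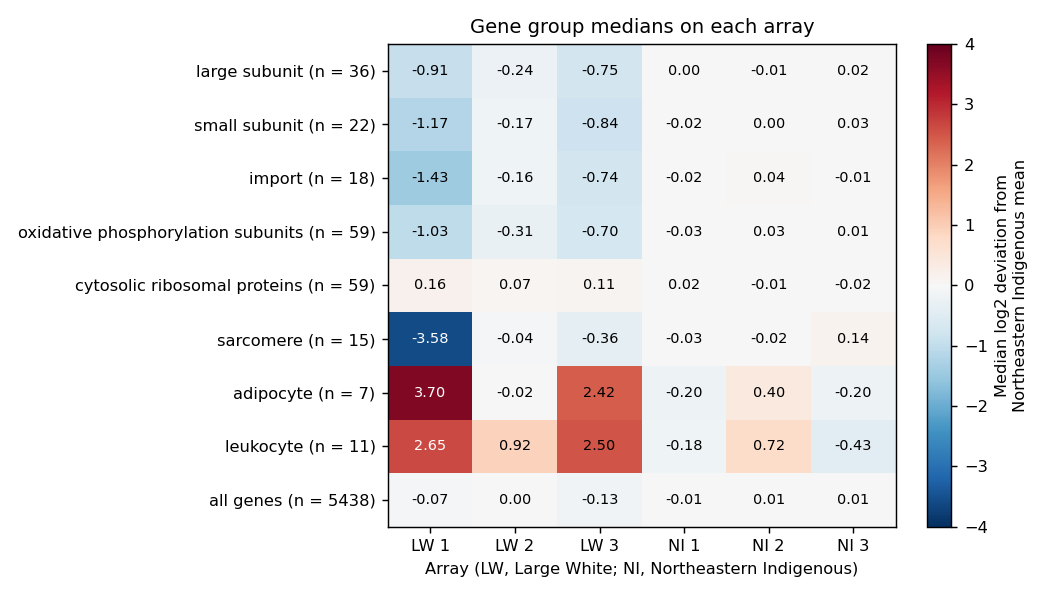
Median over the tested genes of each group of the log2 deviation from the Northeastern Indigenous mean (colour and printed number) on each of the 6 arrays (columns), after quantile normalization. The 3 mitochondrial ribosome and import rows range from -0.74 to -0.84 on Large White replicate 3, and the small positive values of cytosolic ribosomal proteins on Large White replicates 1 and 3 change sign on the deposited scale.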

How the data were processed

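The deposited values are linear intensities, 1 for each probe set on each array. The software that made them is not given in the sources used here. Without the lowest and highest 2% of values, array means were 500.12 to 500.174, so the authors had scaled the arrays before deposit. Controls (124 of 24123 probe sets) were left out. Array medians differed by 0.352 on the log2 scale, over a limit of 0.2, so log2 intensities were quantile normalized. A filter at the 40th percentile of mean log2 (5.85) left 14399 probe sets. The number of arrays limits the precision.

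Breeds were compared two-sided with limma 3.58.1 under R 4.3.3, using lmFit and eBayes with a trend on mean intensity, and p was adjusted by Benjamini-Hochberg over all 14399 probe sets. The fit was tested on simulated data. An SD is over 3 arrays, and an SE is that of the fitted difference. The labels call the arrays biological replicates and name no batch.

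The members, lists and alternatives were chosen with earlier results of these data known. Values are printed for every TIMM and TOMM gene, for up to 4 MRPL and 4 MRPS genes of smallest unadjusted p in each direction, for the highest and lowest mean intensity of each subunit, and for 2 genes of smallest p per pathway list. List genes count as measured where a probe set names them alone. The labels do not say that replicate numbers pair the animals, and the main fit used no pairing. Deviations of same-numbered arrays from their breed mean correlated at -0.0239, -0.164 and -0.108. For differently numbered arrays the range was -0.0942 to 0.133. Such weak correlations over 3 arrays per breed cannot decide whether the animals were paired. No genome build is named, so no coordinates are given.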

Additional observations from a re-analysis of the deposited data

How the results depend on the processing

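The count of 0 genes past the threshold held without quantile normalization, with median centring, under both other filters, the offset, both variance priors, the mean of all probe sets, an adjusted p under 0.1 and the replicate block (0 called, with 15 instead of 23 genes at an unadjusted p under 0.05). Array weights, which put 42 on Large White replicate 3 against at most 1.36 on any other array, gave 68. Leaving out 1 array gave 0 to 47, the 47 without Large White replicate 2, and unadjusted counts of 7 to 58 higher genes. No share of all genes was counted beside the unadjusted counts of these alternatives. With Large White replicates 1 and 3 both left out, the medians were 0.24, 0.17 and 0.16 for large subunit, small subunit and import genes. That fit assumes that the lone Large White array varies like the Northeastern Indigenous ones. Leaving out 1 array gave medians of 0.47 to 0.87, 0.55 to 0.96 and 0.46 to 1.04, and other scalings 0.61 to 0.75, 0.56 to 0.70 and 0.79 to 0.93. Among the 32 named members, 10 changed sign under some alternative. MRPS10 was at 0.01 without quantile normalization, 0.15 with median centring, 0.23 with array weights, 0.19 without Large White replicate 1, 0.02 without Northeastern Indigenous replicate 1 and 0.13 against Large White replicate 2 alone. TIMM50 was at -0.02 without quantile normalization and TOMM34 at -0.09 without Northeastern Indigenous replicate 2. Leaving out 1 array gave -0.15 to 0.19 for MRPS10 and -0.09 to 0.43 for TOMM34. Against Large White replicate 2 alone TIMM10B and TIMM17B were at -0.10, TOMM22 at -0.12, TIMM8B, TOMM5 and MRPL53 at -0.02 and TIMM22 at -0.0019. The cause of these changes was not tested.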
